A study of Mus musculus with 4 samples.

Results

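The 10 genes examined here belong to blood coagulation and its control, and were followed in peritoneal macrophages of mice given BSA or AGEs. They were taken by symbol from the deposited gene table, and all 10 of 10 were found among its 15575 genes, each with reads in all 4 libraries. F3, F7, F10, F5 and F13a1 encode clotting factors, Tfpi, Thbd, Procr and Pros1 encode inhibitors or their receptors, and Thbs1 encodes an adhesive protein of platelets and macrophages. The mice were C57BL/6, and either unmodified BSA or AGEs (BSA modified with dehydroascorbic acid) was injected intravenously at 10 mg/kg/day, beginning 24 h ahead of an intraperitoneal injection of thioglycollate (TG), an irritant that draws monocytes into the cavity. Adherent cells were collected 72 h after TG, so that both groups had TG and a protein injection, and no library here lacks either. Each group had 2 libraries, named biological duplicates in the methods. The number of mice behind each library is not given there.

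Coagulation ends in thrombin, the protease that turns fibrinogen into fibrin. It is started by tissue factor (the product of F3), a membrane protein that binds factor VII, and the pair activates factor X, which forms with its cofactor factor V the complex that makes thrombin. Most of these factors come from the liver, but mouse peritoneal macrophages are known to make several of them, and fibrin is a common product of inflammation in the cavity. Tissue factor pathway inhibitor blocks the start of the cascade, and thrombomodulin, the endothelial protein C receptor and protein S serve the protein C pathway, which inactivates factor V.

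The total count per library ranged from 17773088 to 24472926. All 8 macrophage markers examined were listed, led by the lysozyme gene Lyz2 at 10471 to 13167 CPM (read counts scaled to the TMM-normalized library size), which fits the labelled cell type, while none of 7 hepatocyte markers was listed. BSA replicate 1 stood apart in Thbs1 and AGEs replicate 1 in F13a1. In F5 the BSA duplicates lay apart, on either side of the AGEs libraries. These genes are given below with and without those libraries. The median gap between duplicates, over the 10398 genes at or above the mean level of the lowest coagulation gene, was 0.15 on the log2 scale in BSA and 0.12 in AGEs libraries.

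No coagulation gene changed past the study's threshold, a change of over 1.5-fold at an unadjusted p under 0.05, in edgeR's quasi-likelihood test of AGEs against BSA. The count was 0 of 10, beside 1.77% of the 14181 genes tested in either direction. At an unadjusted p under 0.05 without a fold limit there was 1 of the 10, Thbd, beside 5.64% of all genes tested. After Benjamini-Hochberg adjustment over all genes tested the count at an adjusted p under 0.05 was 0 of 10 and 0% of all genes by edgeR, while DESeq2 had 5 and limma-voom 0 of all genes. DESeq2 and limma-voom also gave 0 of the 10 past the threshold and 0 at an adjusted p under 0.05, with Thbd again the gene at an unadjusted p under 0.05. Of the log2 fold changes, 5 were positive and 5 negative, with a median of -0.029, beside a median of -0.0026 over all genes tested. In 4 genes (F7, Thbd, Tfpi and Procr) the AGEs and BSA libraries did not overlap in CPM, beside 35.3% of all genes tested. With 2 libraries against 2, an exact two-sided permutation test of 1 gene cannot give a p below 0.333, so the edgeR p-values given below draw on a spread pooled over many genes.

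**Figure D1:**
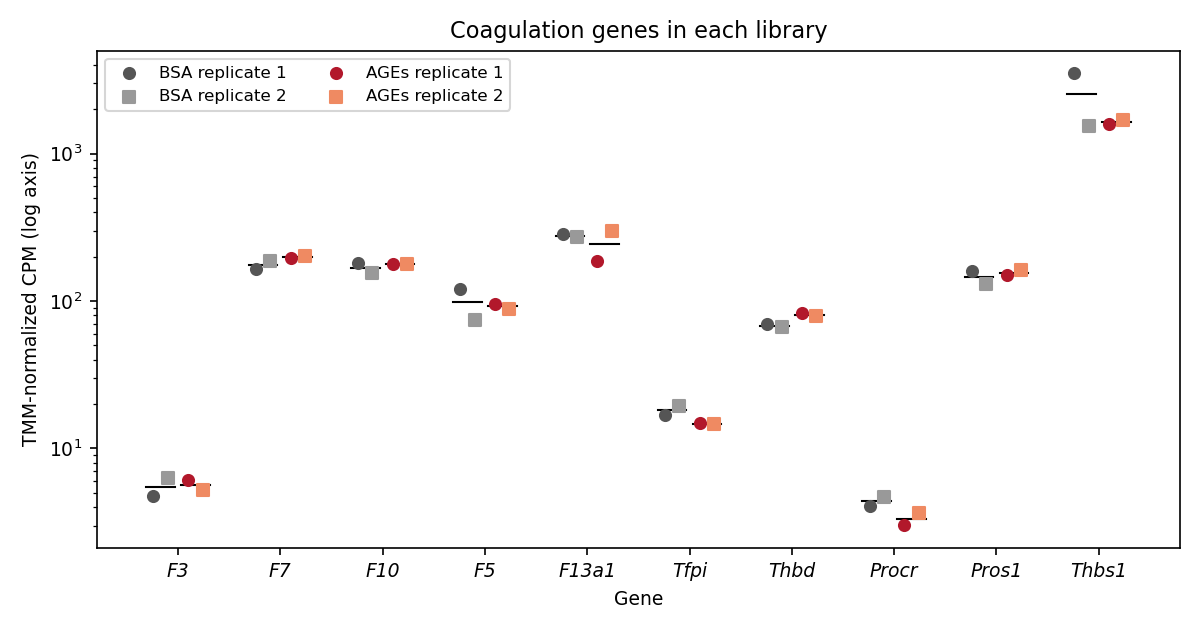
TMM-normalized CPM (log axis) of the 10 genes in each of the 4 libraries, with points for libraries and black bars for the mean of each group. Thbs1 lies highest, BSA replicate 1 stands above the other 3 libraries in Thbs1 and F5, and AGEs replicate 1 lies below them in F13a1.

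The levels of the 10 genes ranged from Thbs1, among the most abundant transcripts of these cells, down to F3 and Procr, which lay below the median of the listed genes in every library. On the length-scaled TPM of the authors, Thbs1 had 375 to 979 TPM and lay at the 99.0 to 99.7 percentile of the 15575 listed genes. It was followed by F7 (134 to 143 TPM), F13a1 (69.2 to 120 TPM), F10 (82.6 to 109 TPM) and Pros1 (56.2 to 78.8 TPM). Below these were Thbd (25.6 to 31.8 TPM), F5 (14.3 to 26.7 TPM), Tfpi (9.15 to 12.2 TPM), F3 (3.93 to 4.74 TPM) and Procr (2.96 to 4.88 TPM). Neighbours in this order overlapped between libraries for F13a1 and F10, for Thbd and F5, and for F3 and Procr, and were apart in all others. The macrophages held far more transcript of the protease gene F7 than of the trigger F3, with a ratio in TPM of 28.3 to 36.4. The ratio of F10 to its cofactor gene F5 in TPM was 4.09 to 5.79.

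F7 and F10, the genes of the vitamin K-dependent proteases factor VII and factor X, lie next to each other on chromosome 8 of GRCm38, F7 (Entrez gene 14068) from 13025506 to 13035809 and F10 (Entrez gene 14058) from 13037308 to 13056676, with 1498 bases between them. Their RefSeq promoter windows (build GRCm38.p6, 250 bases before to 50 after the start, plus strand) are shown because these are the serine protease genes of the set and direct neighbours. They stand at chr8:13025784-13026083 for F7 and chr8:13037058-13037357 for F10. The F7 window is set on a start at 13026034, so it lies within the gene span given above. Windows of Tfpi (chr2:84476710-84477009, minus strand, the farther upstream of 2 starts) and Procr (chr2:155750967-155751266, plus strand) follow, since these were the genes lower in both AGEs libraries. Capitals mark matches, on either strand, to the letters searched.
F7: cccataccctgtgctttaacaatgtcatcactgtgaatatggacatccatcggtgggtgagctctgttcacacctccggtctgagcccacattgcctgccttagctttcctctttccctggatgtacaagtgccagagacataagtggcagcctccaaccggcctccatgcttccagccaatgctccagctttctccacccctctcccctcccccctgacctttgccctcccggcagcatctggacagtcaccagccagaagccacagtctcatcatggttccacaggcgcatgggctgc
F10: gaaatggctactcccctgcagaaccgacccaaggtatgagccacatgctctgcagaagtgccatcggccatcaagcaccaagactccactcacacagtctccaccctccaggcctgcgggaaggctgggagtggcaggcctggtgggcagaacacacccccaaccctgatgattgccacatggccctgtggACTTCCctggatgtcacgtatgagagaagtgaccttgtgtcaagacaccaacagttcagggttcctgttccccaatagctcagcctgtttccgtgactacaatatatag
Tfpi: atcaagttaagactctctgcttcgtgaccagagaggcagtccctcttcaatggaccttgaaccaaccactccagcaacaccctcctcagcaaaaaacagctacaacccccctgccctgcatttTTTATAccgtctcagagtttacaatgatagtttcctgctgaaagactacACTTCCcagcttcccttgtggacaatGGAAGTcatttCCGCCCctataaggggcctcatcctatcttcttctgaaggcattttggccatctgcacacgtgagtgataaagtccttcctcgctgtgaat
Procr: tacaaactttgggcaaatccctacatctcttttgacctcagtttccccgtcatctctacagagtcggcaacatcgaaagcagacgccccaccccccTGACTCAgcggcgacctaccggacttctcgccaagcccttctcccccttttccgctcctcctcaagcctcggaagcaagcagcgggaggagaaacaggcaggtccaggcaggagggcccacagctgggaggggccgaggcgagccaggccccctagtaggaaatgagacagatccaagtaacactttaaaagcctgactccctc

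The letters searched were CAAAGTNCA for the liver factor HNF4, GGAAGT for PU.1 and other ETS factors, TGANTCA for AP-1, GGGCGG for Sp1, and TATAAA. They do not overlap one another in the windows shown. Of the 10 genes, 8 had 10 windows in the table. The HNF4 letters were in none of these windows and in 1.41% of all 32851 promoter windows. So rare a string would seldom fall in 10 windows, and near matches to it were not searched. F7 held none of the letters, F10 held 1 match to GGAAGT (found in 23.8% of all windows), Tfpi held 2 of them with 1 GGGCGG and 1 TATAAA (35.7% and 13.6%), and Procr held 1 TGANTCA (7.81%). Elsewhere, F3 held 2 TGANTCA, 3 GGGCGG and 1 TATAAA, and Pros1 held 5 GGGCGG. These are descriptions of the letters and not sites.

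F7 was among the 3 genes of the set with the smallest p. It had 166 and 187 CPM in the BSA libraries and 195 and 202 CPM in the AGEs libraries, all above those of BSA by a small margin. The fold change was 1.12 (95% interval 0.985 to 1.28), or 0.17 on the log2 scale (SE 0.09), with an unadjusted p = 0.0776 and an adjusted p = 0.893 by edgeR. It was 0.09 on the log2 scale after correction for transcript GC content and 0.07 on log2(TPM + 1). F10 had 180 and 156 CPM in BSA and 179 and 178 CPM in AGEs libraries, where BSA replicate 2 was the low library and the groups overlapped. Its fold change was 1.06 (95% interval 0.926 to 1.22, adjusted p = 0.930 by edgeR). For both proteases the interval lay within 1.5-fold in either direction. The ratio of F7 to F10 in TPM was 1.23 and 1.62 in BSA and 1.45 and 1.52 in AGEs libraries, so that the AGEs ratios lay between the BSA ratios.

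**Figure D2:**
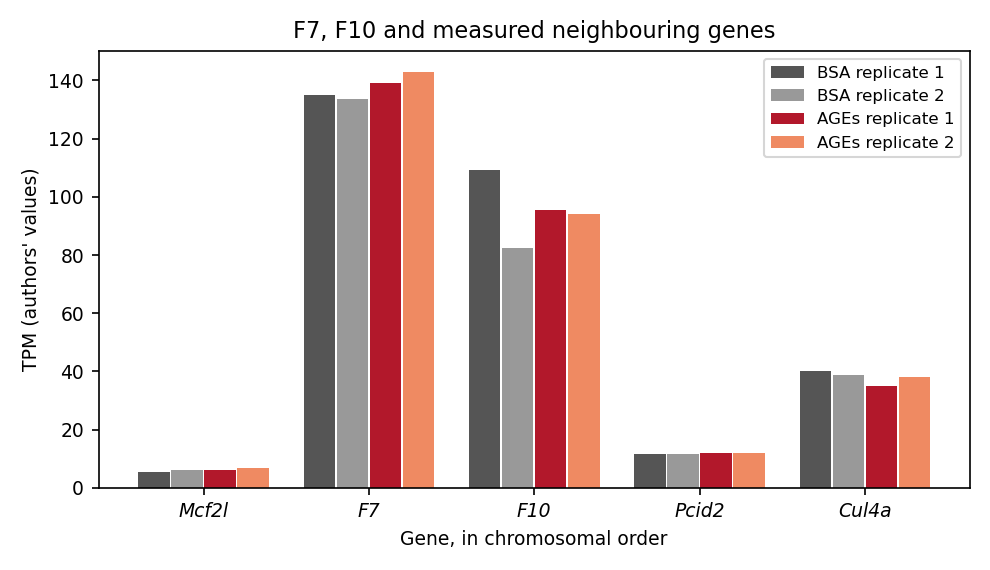
The authors' TPM (linear axis from 0) of F7, F10 and the 3 measured genes around them on chromosome 8, in chromosomal order, with a bar for each library. F7 and F10 stand above Mcf2l, Pcid2 and Cul4a in all 4 libraries.

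The neighbours measured had lower levels than both protease genes in every library. Mcf2l, a guanine nucleotide exchange factor gene before F7, had 5.29 to 6.71 TPM, and F10 exceeded it 13.8 to 20.7 times. Pcid2 had 11.7 to 12.1 TPM, and the ubiquitin ligase gene Cul4a, which lies beyond it, 35.0 to 40.1 TPM. F10 exceeded Cul4a 2.13 to 2.74 times. Proz, the gene of protein Z and the next after F10, was not listed and is not analysed here. Of the 3 neighbours measured 0 passed the threshold, with log2 fold changes of 0.28 (SE 0.16) for Mcf2l, -0.07 (SE 0.12) for Pcid2 and -0.03 (SE 0.10) for Cul4a.

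F3, the gene of tissue factor (Entrez gene 14066, chromosome 3 from 121723537 to 121735052), had few reads. The counts were 86 and 138 in BSA and 139 and 126 in AGEs libraries. These were 4.75 and 6.25 CPM in BSA and 6.07 and 5.19 CPM in AGEs libraries, and the AGEs values lay between the BSA values. The log2 fold change was 0.03 (SE 0.27, adjusted p = 0.995 by edgeR). The 95% interval of the fold ran from 0.684 to 1.52, and counting error and spread between libraries were not separated in it.

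F5, the gene of the cofactor factor V (Entrez gene 14067, chromosome 1 from 164151835 to 164220277), had 122 and 74.5 CPM in BSA and 95.5 and 88.9 CPM in AGEs libraries. The BSA duplicates lay on either side of the AGEs libraries. They differed 1.63-fold, a gap larger than in 97.3% of the 10398 genes compared above. The log2 fold change was -0.09 (SE 0.25, adjusted p = 0.981 by edgeR). It turned to 0.30 without BSA replicate 1 and was -0.40 without BSA replicate 2, so the direction of F5 rests on which BSA library is used.

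F13a1 encodes the A subunit of factor XIII, the transglutaminase that cross-links fibrin, and is on chromosome 13 from 36867178 to 37050244 (Entrez gene 74145). It had 286 and 271 CPM in BSA and 188 and 300 CPM in AGEs libraries. Here the AGEs duplicates were apart, by a gap larger than in 98.0% of the same genes, and AGEs replicate 1 was the low library. The log2 fold change was -0.19 (SE 0.25, adjusted p = 0.950 by edgeR), 0.11 without AGEs replicate 1 and -0.57 without AGEs replicate 2. RefSeq places predicted genes that were not in the deposited table within the spans of F5 and F13a1.

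Among the inhibitors, Thbd was higher and Tfpi and Procr were lower in CPM in both AGEs libraries, each by less than 1.5-fold. Thbd encodes thrombomodulin, the receptor that turns thrombin toward protein C (Entrez gene 21824, chromosome 2 from 148404471 to 148408188). It had 69.5 and 66.8 CPM in BSA and 82.7 and 78.6 CPM in AGEs libraries. The gap between groups was wider than that within either pair of duplicates. The fold change was 1.18 (95% interval 1.03 to 1.36), or 0.24 on the log2 scale (SE 0.09). It had an unadjusted p = 0.0233 and an adjusted p = 0.848 by edgeR. In TPM, Thbd had 30.5 and 25.6 in BSA and 31.8 and 30.2 in AGEs libraries, and the groups overlapped. By limma on log2(TPM + 1) its log2 fold change was 0.15, with an unadjusted p = 0.335.

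Tfpi, the gene of tissue factor pathway inhibitor (Entrez gene 21788, chromosome 2 from 84432855 to 84476775), had 16.8 and 19.4 CPM in BSA and 14.8 and 14.7 CPM in AGEs libraries. Both AGEs libraries were below both BSA libraries. The log2 fold change was -0.30 (SE 0.16), a fold of 0.813 with a 95% interval of 0.635 to 1.04 (adjusted p = 0.902 by edgeR). Procr, the gene of the endothelial protein C receptor (Entrez gene 19124, chromosome 2 from 155751125 to 155755478), had counts of 74 and 104 in BSA and 69 and 89 in AGEs libraries. In CPM it had 4.09 and 4.71 in BSA and 3.01 and 3.66 in AGEs libraries, where the groups again did not overlap. Its log2 fold change was -0.40 (SE 0.31, adjusted p = 0.915 by edgeR), the second largest in size of the 10 and among the least precise, with a 95% interval of the fold from 0.480 to 1.20.

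Endothelial cells make both Tfpi and Procr, and also Thbd, which was higher in AGEs libraries. Fewer cells of a type and less RNA per cell cannot be told apart in bulk libraries. Of 8 endothelial markers, 3 were listed (Pecam1, Cdh5 and Kdr), and Tek, Emcn, Cldn5, Tie1 and Egfl7 were not. Their summed level was 17.5 and 19.8 CPM in BSA and 15.1 and 14.9 CPM in AGEs libraries, which is the same order of libraries by group as for Tfpi. Most of it was Kdr, a receptor of VEGF, at 11 and 13.1 CPM in BSA and 8.21 and 9.47 CPM in AGEs libraries (log2 fold change -0.45, SE 0.20), while the cadherin gene Cdh5, which defines endothelium, had 0.829 to 1.18 CPM and did not move the same way. Pecam1 had 5.69 and 5.76 CPM in BSA and 5.72 and 4.53 CPM in AGEs libraries, and the groups overlapped. They also overlapped for Vwf, a gene known from endothelium and megakaryocytes (log2 fold change 0.12, SE 0.13). The part of endothelial cells in the levels of Tfpi, Procr and Thbd was not tested.

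Pros1 encodes protein S, a cofactor of activated protein C and a ligand of the TAM receptors by which macrophages take up dying cells (Entrez gene 19128, chromosome 16 from 62854307 to 62929346). It had 160 and 130 CPM in BSA and 150 and 162 CPM in AGEs libraries, and the groups overlapped. The fold change was 1.08 (95% interval 0.923 to 1.26, adjusted p = 0.928 by edgeR). In all, 4 genes, F7, F10, Thbd and Pros1, thus had intervals within 1.5-fold in either direction, which is a bound on their change in these libraries and not a finding that they did not change.

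**Figure D3:**
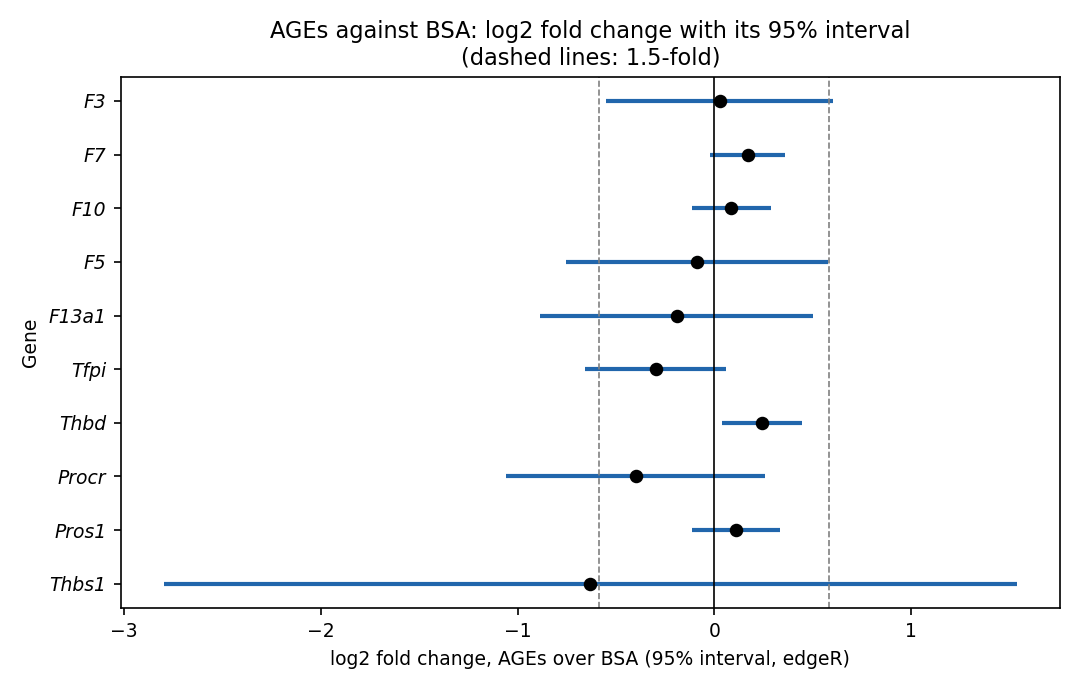
Log2 fold change of AGEs over BSA for the 10 genes, with points for edgeR's estimates, blue lines for 95% intervals and dashed lines at 1.5-fold. The intervals of F7, F10, Thbd and Pros1 lie between the dashed lines, and that of Thbs1, from -2.80 to 1.54, is the widest.

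Thbs1, the gene of thrombospondin-1, which binds CD36 and CD47 and activates latent TGF-β, is on chromosome 2 from 118111876 to 118127133 (Entrez gene 21825). It had 63497 and 33913 counts in BSA and 36158 and 40854 counts in AGEs libraries. In CPM these were 3509 and 1537 in BSA and 1579 and 1682 in AGEs libraries. BSA replicate 1 was far above the other 3 libraries, which lay close together, with BSA replicate 2 the lowest. The BSA duplicates differed 2.28-fold, a gap larger than in 99.6% of the 10398 genes compared, and the AGEs duplicates 0.939-fold. The log2 fold change was -0.63 (SE 0.56, adjusted p = 0.931 by edgeR). Without BSA replicate 1 it was 0.08, not past the threshold. Without BSA replicate 2 it was -1.10, past the threshold at an adjusted p = 0.000145 by edgeR, so that this gene's call and direction both rest on 1 library.

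F5 is known as a gene of resident large peritoneal macrophages, the main macrophages of the uninflamed cavity, and markers of these cells also varied between duplicates. All 8 of 8 such markers were listed. Their summed level was 165 and 85.9 CPM in BSA and 164 and 115 CPM in AGEs libraries. Replicate 1 was the higher in both groups. Prg4 and Selp, the markers of highest mean CPM, were highest in AGEs replicate 1. Prg4 had 66.9 and 36.9 CPM in BSA and 73.2 and 49.9 CPM in AGEs libraries. Selp had 34.0 and 17.1 CPM in BSA and 39.6 and 21.5 CPM in AGEs libraries. Alox15, a lipoxygenase gene of these cells, had 27.4 and 10.6 CPM in BSA and 17.3 and 16.2 CPM in AGEs libraries, with BSA replicate 1 the highest as for Thbs1 and F5. Gata6, the transcription factor that defines them, had 6.13 and 4.08 CPM in BSA and 8.60 and 6.46 CPM in AGEs libraries. Timd4 had 10.6 and 3.63 CPM in BSA and 5.59 and 3.25 CPM in AGEs libraries. Icam2 had 17.6 and 11.8 CPM in BSA and 15.5 and 15.4 CPM in AGEs libraries. Both were highest in BSA replicate 1, as was Cxcl13 at 1.38 CPM. Garnl3 was highest in AGEs replicate 1 (2.49 CPM), as were Prg4, Selp and Gata6. The markers thus differed in which library was highest. The part of resident macrophages in the gaps between duplicates of Thbs1 and F5 was not tested.

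**Figure D4:**
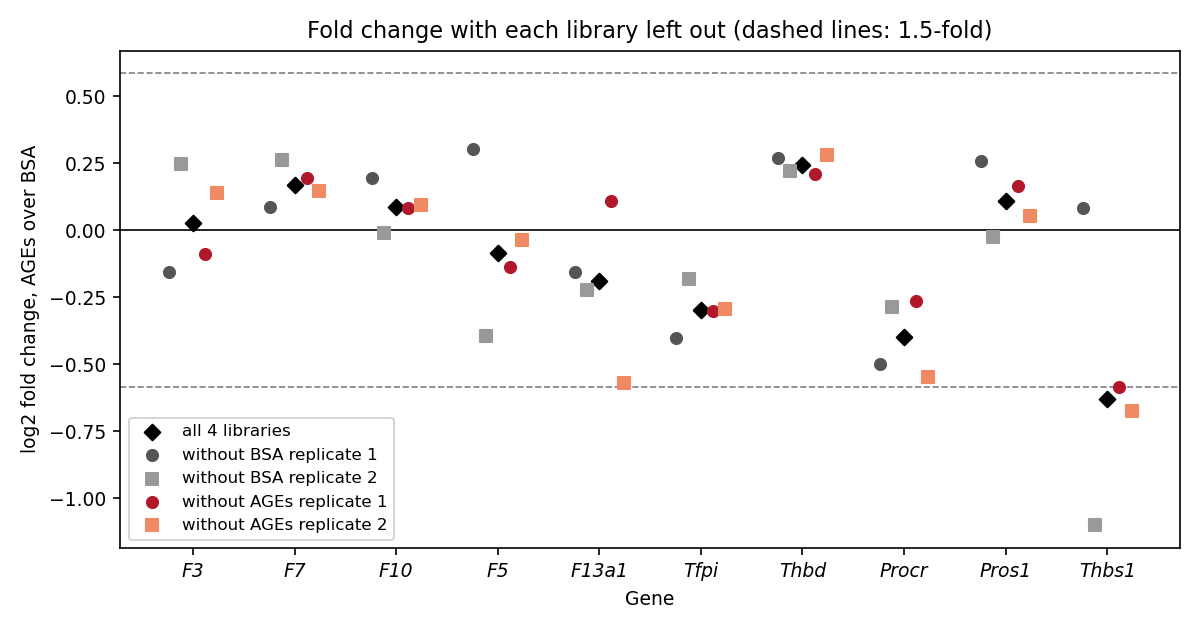
Log2 fold change of AGEs over BSA for each gene with all 4 libraries (diamonds) and with each library left out in turn, with dashed lines at 1.5-fold. Thbs1 moves from -1.10 to 0.08 and F5 from -0.40 to 0.30 with the BSA library left out. F7, Thbd, Tfpi and Procr stay on the same side of 0, which follows from groups that do not overlap.

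Across the 10 genes, the gap between the BSA duplicates was larger than the difference between groups in 5 (F3, F10, F5, Pros1 and Thbs1). In the 4 fits with each library left out, F7 and Thbd stayed positive and Tfpi and Procr negative. In these 4 genes the groups did not overlap, as in 35.3% of all genes tested. Leaving out 1 library could thus hardly reverse their sign, and the kept sign is no measure of stability. Thbd was no longer under an unadjusted p of 0.05 without AGEs replicate 1 or without BSA replicate 2.

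The other clotting factors, most of them of the liver, were largely unmeasured. Of 13 such genes (F2, the gene of prothrombin, and the fibrinogen genes Fga, Fgb and Fgg among them) 4 were listed, and 0 of these 4 passed the threshold. Vwf, the gene of von Willebrand factor, known from endothelium and megakaryocytes, was the most abundant, at 86.6 and 119 CPM in BSA and 117 and 108 CPM in AGEs libraries (log2 fold change 0.12, SE 0.13). The other 3 were F8, F9 and Klkb1, each at 50 counts or fewer in any library. Of 9 platelet and megakaryocyte markers, 3 were listed, at a summed 2.27 to 3.49 CPM. Of 13 further inhibitor genes, 3 were listed and 0 passed. Among them Anxa5, whose product covers phosphatidylserine and so hinders clotting, had 594 to 632 CPM with a log2 fold change of -0.01 (SE 0.08), while Anxa2, a receptor for plasminogen and its activator, had 442 and 455 CPM in BSA and 613 and 496 CPM in AGEs libraries (log2 fold change 0.31, SE 0.10, adjusted p = 0.848 by edgeR).

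Macrophages that make vitamin K-dependent factors need the enzymes that carboxylate them, and transcripts for these enzymes were present. The enzymes themselves were not measured. Of 9 genes of the vitamin K cycle and of factor processing and export, 8 were listed and 0 passed the threshold, with a median log2 fold change of 0.02, beside -0.0026 over all genes tested. Furin, the protease that cuts propeptides, had 173 to 194 CPM, Mcfd2, which with Lman1 carries factors V and VIII out of the endoplasmic reticulum, had 123 to 141 CPM, and the vitamin K reductase gene Vkorc1l1 had 71.7 to 77.8 CPM. All 3 overlapped between groups. Ggcx, the carboxylase itself, had 25.6 and 24.2 CPM in BSA and 23.6 and 24.2 CPM in AGEs libraries (log2 fold change -0.06, SE 0.13), and the vitamin K reductase gene Vkorc1 had 7.34 to 8.08 CPM (0.11, SE 0.22). The smallest p of the list was that of Tpst2, a tyrosine sulfotransferase gene, with 40.3 and 40.5 CPM in BSA and 50.2 and 52.8 CPM in AGEs libraries. Both AGEs libraries were higher, by a log2 fold change of 0.35 (SE 0.11, adjusted p = 0.807 by edgeR), under the fold limit.

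Receptors for the products of these genes were mixed. Of the 4 genes of the TAM receptors and their ligand Gas6, 3 were listed and 0 passed the fold limit. Axl, a TAM receptor, had 69.0 and 82.0 CPM in BSA and 99.8 and 121 CPM in AGEs libraries, and the groups did not overlap. Its fold change was 1.46, or 0.55 on the log2 scale (SE 0.12), just inside the fold limit, with an unadjusted p = 4.25e-04 and an adjusted p = 0.604 by edgeR. Mertk, the TAM receptor of higher level here, had 148 to 176 CPM and a log2 fold change of -0.07 (SE 0.10), and Gas6 one of -0.20 (SE 0.19). Of the 4 thrombin receptors F2r alone was listed, at 7 to 24 counts, with a log2 fold change of 0.10 (SE 0.61).

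Of 10 other thrombospondins and receptors of thrombospondin, 8 were listed and 1 passed, Thbs3, beside 1.77% of all genes tested. Thbs3 had 0.718 and 1.22 CPM in BSA and 1.57 and 3.05 CPM in AGEs libraries, at 13 to 74 counts. Its log2 fold change was 1.23 (SE 0.50, adjusted p = 0.860 by edgeR). The scavenger receptor gene Cd36 had 2415 to 2962 CPM and overlapped between groups. Lrp1, the receptor that clears thrombospondin and protease complexes, had 4382 and 4673 CPM in BSA and 5471 and 5227 CPM in AGEs libraries (log2 fold change 0.24, SE 0.09, adjusted p = 0.848 by edgeR). The integrin gene Itgav had a log2 fold change of -0.10 (SE 0.10).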

How the data were processed

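The data are 4 total RNA-seq libraries of adherent peritoneal macrophages, 2 of BSA and 2 of AGEs mice, grouped by the treatment label. For these, the authors depleted ribosomal RNA, used a stranded kit, aligned with HISAT2 to mm10 (GRCm38) and ran StringTie for FPKM and TPM. Read counts were deposited for each gene, while the counting tool and its use of strand are not given in the sources read. The deposited TPM ordered genes by level and entered 1 alternative. In it 7SL RNAs took 38.0% to 46.2% of each library. FPKM, log2 columns and the authors' own comparison (DESeq2 fold changes and p-values) were left out.

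AGEs were compared with BSA by edgeR 4.0.16 (R 4.3.3) on the counts, with TMM, filterByExpr and robust glmQLFit and glmQLFTest, over the 14181 genes that passed the filter, all 10 coagulation genes among them. Benjamini-Hochberg adjustment covered all these genes, and the threshold (over 1.5-fold, unadjusted p under 0.05) was that of the study. Each log2 fold change over the square root of its F statistic gave the standard error, with its 95% interval from the moderated t distribution. The methods call the libraries biological duplicates, without the number of mice in each, and p-values measure the spread between these libraries. Fits with 1 library left out assume that the lone one varies like the other group. The steps were tested on simulated counts.

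The 10 genes and all lists were chosen with earlier results of these data known. Named from each list are genes past the threshold and up to 3 of highest mean CPM. Added outside this rule, after their values were seen, were F8, Gata6, Ggcx, Vkorc1, Tpst2, Cx3cr1, Irf4, Timd4, Icam2, Cxcl13 and Garnl3. So were Dcn, Pdgfra, Msln, Upk3b and Wt1. Ciita, S100a8 and Cxcr2, which the rule covers, were also added then. The alternatives were DESeq2 1.42.0, limma-voom (limma 3.58.1), other scalings (RLE, upper quartile, library size), filters (none, or a minimum of 50 counts in 2 libraries), the replicate block, leaving out each library, a fold limit of 2, limma on log2(TPM + 1), and GC correction with and without the block. The last removed a loess trend (span 0.5, fitted where log2 CPM exceeded 3) on GC of the longest transcript in GENCODE, available for 13153 tested genes and all 10 coagulation genes. Positions and promoters came from RefSeq (GRCm38.p6), where all 10 gene IDs matched.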

Additional observations from a re-analysis of the deposited data

How the results depend on the processing

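The count of coagulation genes past the threshold was 0 in every alternative except without BSA replicate 2, where it was 1 (Thbs1), and the count at an adjusted p under 0.05 was likewise 0 to 1 with a library left out. The replicate number as a block changed no call of these genes (0 past the threshold, Thbs1 at -0.51 on the log2 scale). The numbers pair nothing in the labels, and the differences between replicates 1 and 2 correlated at 0.028 across genes between the groups. Over all genes, 251 passed, 264 with the block, 143 with DESeq2, 127 among genes with 50 or more counts in 2 or more libraries, 136 at a fold limit of 2, and 270 to 543 with a library left out. Those higher in AGEs were 117 of 251, 59 of 201 on log2(TPM + 1) and 311 of 543 without BSA replicate 2.

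The sign of the log2 fold change was the same in all 15 alternatives for F7, Thbd, Tfpi and Procr. With a library left out, this follows from the groups of these genes not overlapping. The sign reversed for others only with a library left out or on log2(TPM + 1). With a library left out the ranges were -0.0097 to 0.19 for F10, -0.40 to 0.30 for F5, -0.57 to 0.11 for F13a1, -0.16 to 0.25 for F3, -0.027 to 0.26 for Pros1 and -1.10 to 0.081 for Thbs1. On log2(TPM + 1) F10 was at -0.0012 and F3 at -0.041. Log2 fold changes followed transcript GC content across genes (Spearman's rho 0.465, genes not being independent replicates). After GC correction the log2 fold changes were nearer to 0 for F7 (0.09), F10 (0.05), F5 (-0.05), F13a1 (-0.15), Thbd (0.21) and Tfpi (-0.23), and farther from 0 for Pros1 (0.17), F3 (0.06), Procr (-0.42) and Thbs1 (-0.64). F3 and Procr had the fewest reads of the set, 69 to 139 counts a library.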

Other observations

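Genes that remove fibrin stood beside those that make it. Of 8 fibrinolysis genes, 5 were listed and 0 passed the threshold. Plau, the gene of urokinase, had 167 and 147 CPM in BSA and 122 and 140 CPM in AGEs libraries (log2 fold change -0.26, SE 0.10, adjusted p = 0.848 by edgeR), and its receptor gene Plaur had 107 and 102 CPM in BSA and 121 and 120 CPM in AGEs libraries (0.21, SE 0.09, adjusted p = 0.876 by edgeR). For neither gene did the groups overlap. Serpinb2, an inhibitor of urokinase, had 82.7 and 34.3 CPM in BSA and 96.2 and 43.0 CPM in AGEs libraries, higher in replicate 1 of both groups.

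Membranes that expose phosphatidylserine carry the clotting complexes. All 4 scramblase genes examined were listed and 0 passed, with Ano6 the most abundant at 223 to 245 CPM (log2 fold change -0.04, SE 0.09). Of 4 other transglutaminases, 2 were listed and 0 passed. Tgm2, which like factor XIII cross-links proteins, had 181 to 207 CPM (log2 fold change 0.09, SE 0.09).

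The summed level of 8 listed fibroblast and mesothelial markers of 9 was 85.3 and 105 CPM in BSA and 154 and 78.1 CPM in AGEs libraries. It was highest in AGEs replicate 1, the library lowest in F13a1. Most of it there was collagen genes, Col1a1 (36.7 CPM), Col1a2 (59.8 CPM) and Col3a1 (43.0 CPM). Dcn was instead highest in BSA replicate 1 (9.67 CPM), and Pdgfra had 3.66 to 4.37 CPM. Msln, Upk3b and Wt1 had 0.175 to 1.965 CPM. Whether this sum and F13a1 are related was not tested. Of 8 B and T cell markers the 4 of B cells were listed, at 53.1 and 66.2 CPM in BSA and 66.1 and 82.4 CPM in AGEs libraries. Of 8 neutrophil markers 3 were listed, and nearly all of their summed 112 to 142 CPM was Csf3r, at 110 to 139 CPM. S100a8 had 1.09 to 2.06 CPM and Cxcr2 0.136 to 0.442 CPM, and S100a9, Ngp, Camp, Ly6g and Retnlg were not listed. Mast cell markers summed to 3.10 to 6.21 CPM (5 of 8 listed). The 7 markers of monocyte-derived and small peritoneal macrophages summed to 534 and 532 CPM in BSA and 568 and 571 CPM in AGEs libraries, so that this sum was higher in both AGEs libraries. Of the 6 tested, 6 had positive log2 fold changes (median 0.29), beside 7011 of all 14181 genes tested. Clec10a passed the threshold (log2 fold change 0.68, SE 0.15, adjusted p = 0.604 by edgeR), beside 1.77% of all genes tested. Ccr2 and Itgax, the highest in mean CPM, overlapped between groups. They had 249 to 309 CPM (log2 fold change 0.02, SE 0.10) and 131 to 178 CPM (0.04, SE 0.13). Irf4 overlapped as well (0.33, SE 0.19). The groups did not overlap for Clec10a, Cx3cr1 (log2 fold change 0.51, SE 0.22) and Ciita (0.26, SE 0.11), all higher in AGEs libraries. That was so for 35.3% of all genes tested, in either direction. The part of these cell types in the levels of the coagulation genes was not tested.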
